A study of Rattus norvegicus with 6 samples.

Results

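Genes of the laminin, nidogen and perlecan families were followed in rat lung: Lama2, Lama3, Lama4, Lama5, Lamb1, Lamb2, Lamc1, Nid1, Nid2 and Hspg2. They were defined by gene name, in a choice made with earlier results of these data known. All 10 were found among the 40995 genes of the deposited count and FPKM tables. All 10 also passed the filter on low counts that left 18464 genes for testing. Messenger RNA from the lungs of 6 Sprague-Dawley background rats was sequenced, with all libraries in 1 batch per the labels. Of these rats, 3 were wild type (WT) and 3 are labelled crTMPRSS2 knockout (KO). That line carries a CRISPR/Cas9 edit in Tmprss2, a gene for a membrane serine protease of lung epithelium. Neither group was treated. The sources used here do not give sex, age, litter, the edited allele or the number of founders, and the KO group stands for 1 line.

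The basement membrane is a thin sheet of extracellular matrix under epithelium and endothelium and around muscle, nerve and fat cells. Laminins are its cell-facing network: each is a trimer of an alpha, a beta and a gamma chain, and the alpha chain carries most of the sites that bind integrins and dystroglycan. A separate network of type IV collagen is linked to the laminins by nidogens, which bind the laminin gamma 1 chain, and by perlecan, a large heparan sulfate proteoglycan. In the alveolus, epithelial and capillary basement membranes lie against each other and form part of the barrier across which gas is exchanged.

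Total counts were 29933359 to 36895162 per library. The library of WT replicate 1 lay far from the rest, at -109 on the first principal component of log2 counts against 9.09 to 30.6. It carried RNA of skeletal muscle and squamous epithelium: the summed level of 12 muscle markers was 9056 CPM (counts per 1000000 counts) there against 25.9 to 73.6 CPM in the others, and that of 10 squamous markers 3325 CPM against 12.9 to 19.1 CPM. Fitted results are therefore also given without that library. Tmprss2 mRNA stood at 50.5, 62.0 and 65.7 CPM in WT and 46.1, 56.4 and 47.0 CPM in KO, and its difference did not pass the test (log2 fold change -0.25, edgeR adjusted p = 0.508, and -0.36 with adjusted p = 0.0589 without WT replicate 1). Gene totals do not show a small deletion, so this level does not check the genotype labels.

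All 10 genes had a lower fitted level in KO than in WT lungs, but with all 6 libraries none of them passed the edgeR test. The log2 fold changes (KO over WT, so that negative values are lower in KO) ran from -0.56 for Nid1 to -0.08 for Nid2, with a median of -0.23 against 0 over all tested genes. In the edgeR quasi-likelihood fit, with p-values adjusted over all genes, 0 of 10 were lower at an adjusted p under 0.05, against 0.0379% of all tested genes. At an unadjusted p under 0.05, 4 of 10 were lower, against 6.29% of all tested genes, and DESeq2 called 1 of 10, Nid1, where it called 1.26% of genes as lower. Every KO library lay below every WT library for 6 of 10, against 11.4% of all tested genes, and a fold change below 0 was seen in 50.3% of tested genes. Without WT replicate 1, Nid1, Hspg2, Lama4 and Lama3 fell in KO: 4 of 10 passed at an adjusted p under 0.05, against 2.34% of all tested genes. In that fit the median was -0.21, all 10 stayed below 0 (49.3% of all tested genes did) and 6 had an unadjusted p under 0.05 (9.28% of genes were lower at that level). That fit rests on 2 WT rats, and the p-values measure the spread among these few animals. Because the genes were chosen with earlier results of these data known, the shares of all tested genes describe the background and do not test the list.

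**Figure D1:**
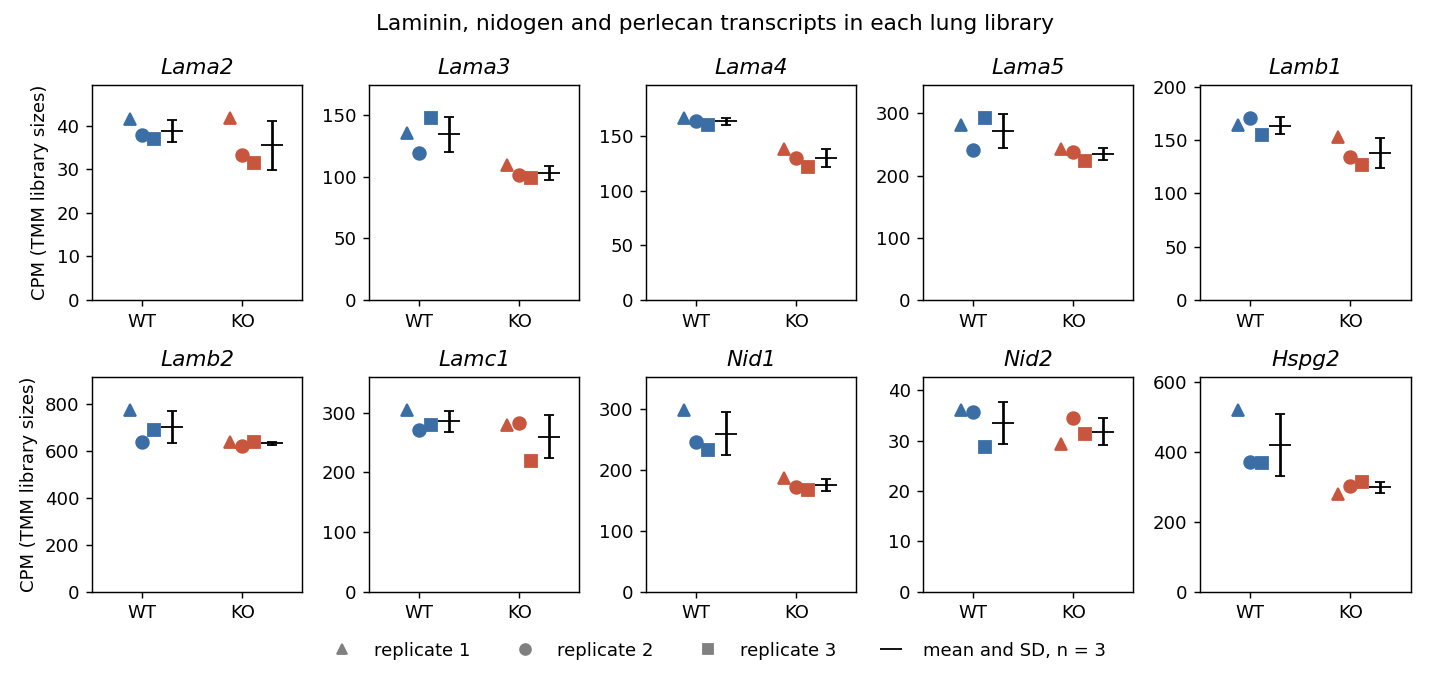
Level of each of the 10 genes in CPM (TMM library sizes; each vertical axis starts at 0) in the 3 WT (blue) and 3 KO (red) libraries, with the mean and SD of each group beside the points. The groups are separate for Lama3, Lama4, Lamb1, Lamb2, Nid1 and Hspg2, and WT replicate 1 is the highest library for Nid1 at 299 CPM and for Hspg2 at 522 CPM.

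The upstream sequences of the 4 genes that fell without WT replicate 1 are shown because these genes passed at an adjusted p under 0.05 in that fit. RefSeq start sites of build GRCr8 were matched for 8 of the 10 genes. The 250 bases before the start are printed 5′ to 3′ on the gene's strand, and capitals mark matches, on either strand, to 4 motifs. These were the AP-1 site, spelled TGANTCA, and the GC box of Sp1 factors, spelled GGGCGG. The others were the CCAAT box, searched by the 5 letters of its name, and the core of the TATA box, spelled TATAAA. Matches of different motifs did not overlap.
Lama3, chr18:3952517-3952766, plus strand: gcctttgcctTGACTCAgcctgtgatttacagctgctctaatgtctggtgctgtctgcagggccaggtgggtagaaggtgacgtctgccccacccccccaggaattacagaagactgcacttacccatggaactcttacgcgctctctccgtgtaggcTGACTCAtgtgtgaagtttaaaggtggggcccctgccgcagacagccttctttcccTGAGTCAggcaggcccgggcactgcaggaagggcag
Lama4, chr20:43946648-43946897, plus strand: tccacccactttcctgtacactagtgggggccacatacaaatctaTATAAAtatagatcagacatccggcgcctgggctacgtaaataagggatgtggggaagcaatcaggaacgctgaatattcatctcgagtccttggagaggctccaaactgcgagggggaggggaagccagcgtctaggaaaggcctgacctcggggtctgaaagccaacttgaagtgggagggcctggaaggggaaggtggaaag
Nid1, chr17:93069036-93069285, plus strand: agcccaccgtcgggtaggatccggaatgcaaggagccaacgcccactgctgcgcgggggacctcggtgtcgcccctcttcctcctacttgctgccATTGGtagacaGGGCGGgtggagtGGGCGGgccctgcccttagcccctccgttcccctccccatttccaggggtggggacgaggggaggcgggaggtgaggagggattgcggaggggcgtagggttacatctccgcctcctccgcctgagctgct
Hspg2, chr5:154960596-154960845, plus strand: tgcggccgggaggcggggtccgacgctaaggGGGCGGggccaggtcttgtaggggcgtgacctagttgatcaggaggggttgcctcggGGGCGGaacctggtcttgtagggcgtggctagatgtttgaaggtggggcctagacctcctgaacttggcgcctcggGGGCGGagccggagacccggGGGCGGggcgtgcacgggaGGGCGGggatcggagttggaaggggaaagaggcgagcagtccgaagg
The 4 windows had little in common. The Lama3 window held 3 AP-1 matches and no GC box, where 6.34% of all 33469 RefSeq windows of that length held at least 1 AP-1 match and 5 windows held 3 or more. The Hspg2 window held 5 GC boxes, where 1.72% of all windows held 5 or more. The Nid1 window held 2 GC boxes and 1 CCAAT box, where at least 1 GC box was present in 30.5% and a CCAAT box in 34.0% of all windows. The Lama4 window held none of these, and its 1 TATA box match, present in 12.9% of all windows, began 205 bases before the start. GC boxes also occurred in the windows of genes that did not pass: Lamc1 held 5, Lama5 4, Lamb1 2 and Lama2 1. The letters describe 1 annotated start per gene, and a match is no evidence that a factor binds there.

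Among the alpha chains, Lama3 and Lama4 were the pair with separate groups. Lama4 (chromosome 20, 42392268 to 42533347 of mRatBN7.2) encodes the alpha 4 chain of endothelial and mesenchymal basement membranes. In replicates 1 to 3 it stood at 167, 164 and 160.1 CPM for WT and at 138, 130.1 and 122 CPM for KO, and values of other genes are given in the same order. The WT libraries were close to each other, and the highest KO library lay well under the lowest of them. Its log2 fold change was -0.33 (SE 0.09, with a 95% confidence interval of -0.55 to -0.12, edgeR adjusted p = 0.279), and it was -0.32 (SE 0.07, adjusted p = 0.0269) without WT replicate 1. Lama4 thus had nearly the same difference in both fits, a level 20.5% lower in KO with all libraries and 19.8% lower without WT replicate 1.

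Lama3 (chromosome 18, 3523168 to 3751722) encodes the alpha 3 chain of epithelial laminins, among them laminin-332 of hemidesmosomes. It stood at 135, 119 and 148 CPM in WT and at 109, 101 and 98.8 CPM in KO. WT replicate 2 was the lowest WT library, and all KO libraries lay under it. The log2 fold change was -0.38 (SE 0.11, interval -0.63 to -0.12, adjusted p = 0.300) with all libraries and -0.37 (SE 0.09, adjusted p = 0.0475) without WT replicate 1, just inside the threshold.

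Lama5 and Lama2 did not pass in either edgeR fit. Lama5 (chromosome 3, 167270296 to 167318370) encodes the alpha 5 chain of laminin-511 and laminin-521, a main alpha chain of adult epithelial and endothelial basement membranes. It stood at 281, 241 and 293 CPM in WT and at 243, 238 and 224 CPM in KO, so KO replicate 1 overlapped WT replicate 2. Its log2 fold change of -0.21 had an interval from -0.46 to 0.04 (adjusted p = 0.497), and without WT replicate 1 it was -0.18 (-0.36 to -0.01, adjusted p = 0.267). Lama2 (chromosome 1, 17672675 to 18320641), the alpha chain of muscle and peripheral nerve laminin, stood at 41.6, 37.9 and 36.9 CPM in WT and at 41.8, 33.2 and 31.4 CPM in KO. KO replicate 1 was as high as the highest WT library, and the interval of its log2 fold change ran from -0.44 to 0.18 around -0.13. Its log2 fold change was -0.07 without WT replicate 1 (adjusted p = 0.809). Lama2 in WT replicate 1 stayed close to the other WT libraries, although the skeletal muscle actin gene Acta1 reached 5077 CPM there, and 0.694 to 2.39 CPM elsewhere.

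Lamb1, Lamb2 and Lamc1 did not pass in either edgeR fit. Lamb1 (chromosome 6, 47835492 to 47902585), the beta chain shared by laminin-411 and laminin-511, stood at 164, 171 and 155 CPM in WT and at 153, 134 and 127 CPM in KO. The groups touched without overlapping, with 155 CPM as the lowest WT and 153 CPM as the highest KO value. Lamb1 had a log2 fold change of -0.24 (interval -0.49 to 0.01, adjusted p = 0.445), and it was -0.24 (-0.43 to -0.05, adjusted p = 0.166) without WT replicate 1. Lamb2 (chromosome 8, 109178367 to 109190552), the beta chain of laminin-521 and of vascular, glomerular and synaptic basement membranes, stood at 777, 639 and 691 CPM in WT and at 638, 623 and 637 CPM in KO. Its WT values spread far more than its KO values, and the lowest WT library barely exceeded the highest KO library. The interval of its log2 fold change ran from -0.40 to 0.10 around -0.15, and without WT replicate 1 from -0.19 to 0.05 around -0.07.

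Lamc1 (chromosome 13, 65374372 to 65501492) encodes gamma 1, the gamma chain of most laminins and the one that nidogen binds. It stood at 305, 271 and 279 CPM in WT and at 279, 282 and 219 CPM in KO. KO replicates 1 and 2 lay within the WT range, and KO replicate 3 alone was lower. Its log2 fold change was -0.13 (interval -0.43 to 0.17, adjusted p = 0.664), and it was -0.08 (-0.30 to 0.13) without WT replicate 1.

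Of the 2 nidogens, Nid1 fell in the fit without WT replicate 1 and Nid2 passed in neither fit. Nid1 (chromosome 17, 86085046 to 86158277), the main linker between laminin and type IV collagen, stood at 299, 246 and 232 CPM in WT and at 187, 171 and 167 CPM in KO. WT replicate 1 was the highest, yet the other WT libraries also exceeded every KO library. The log2 fold change was -0.56 (SE 0.12, interval -0.85 to -0.27, edgeR adjusted p = 0.224), a mean level 32.3% lower in KO. Without WT replicate 1 it was -0.45 (SE 0.06, interval -0.59 to -0.30, adjusted p = 0.00556), or 26.6% lower, the smallest adjusted p of the 10 genes in that fit. Nid2 (chromosome 15, 4458082 to 4513808), the second nidogen of vertebrates, stood at 36.1, 35.7 and 28.7 CPM in WT and at 29.3, 34.6 and 31.4 CPM in KO. The groups were mixed, and the interval of its log2 fold change ran from -0.38 to 0.23 around -0.08. Nid2 was at -0.02 without WT replicate 1 (adjusted p = 0.961).

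Hspg2 (chromosome 5, 149677437 to 149778594) encodes perlecan, which binds growth factors through its heparan sulfate chains. It stood at 522, 371 and 369 CPM in WT and at 281, 304 and 314 CPM in KO. WT replicate 1 was far above all other libraries, and the remaining WT libraries were still above every KO library. For Hspg2 the log2 fold change was -0.49 (SE 0.16, interval -0.85 to -0.13, adjusted p = 0.340). Without WT replicate 1 it shrank to -0.30 (SE 0.06, interval -0.44 to -0.17, adjusted p = 0.0208), and the mean was 19.1% instead of 28.8% lower in KO.

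**Figure D2:**
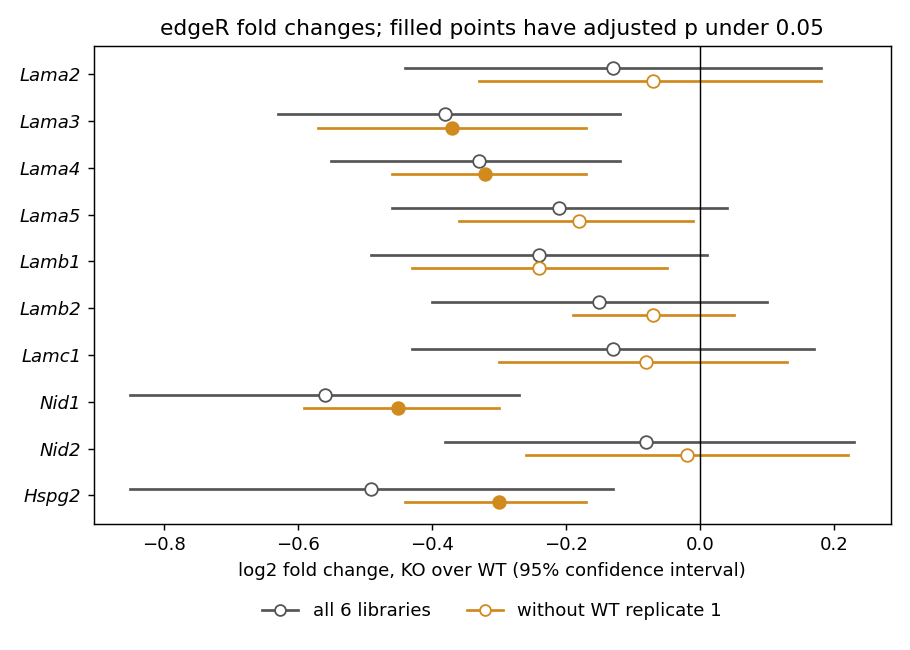
Log2 fold change of each gene, KO over WT, from the edgeR fit with all 6 libraries (grey) and without WT replicate 1 (orange); lines are 95% confidence intervals and filled points have an adjusted p under 0.05. All points lie below 0, and Lama3, Lama4, Nid1 and Hspg2 are filled in the fit without WT replicate 1.

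Levels of different genes were compared per length, as FPKM (fragments per kilobase of gene length, scaled to library size, from the authors' table), over all 6 libraries. Lamb2 was the most abundant, with a mean of 118 FPKM (109 to 139), and its range lay above that of every other member. Nid1 (36.2 FPKM) and Lamc1 (35.5 FPKM) came next, and their order differed by genotype. Nid1 exceeded Lamc1 in all 3 WT libraries, with means of 43.3 and 37.2 FPKM, and lay below it in all 3 KO libraries, with means of 29.1 and 33.7 FPKM. The means over the 5 libraries other than WT replicate 1 put Lamc1 (34.6 FPKM) above Nid1 (33.4 FPKM), and Lama4 (23.4 FPKM) above Hspg2 (22.1 FPKM). Lamb1 (25.6 FPKM), Hspg2 (24.4 FPKM), Lama4 (24.1 FPKM) and Lama5 (22.3 FPKM) overlapped in range, although Lama4 exceeded Lama5 in all 6 libraries. Nid2 (6.82 FPKM) and Lama3 (6.37 FPKM) overlapped as well, and Lama2 was lowest at 3.82 FPKM (3.22 to 4.33). The deposited length of Lama3, 18506 bases, was the longest of the 10, and exons that lung does not use would lower its FPKM.

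The make-up of the alpha chains, the beta chains and the nidogens was compared within each library. Among the alpha chains Lama4 held the largest mean share, 43.4% in WT and 41.7% in KO, followed by Lama5. The share of Lama5 in the summed FPKM of Lama1 to Lama5 was 38.8%, 36.3% and 40.4% in WT and 39.4%, 40.9% and 40.8% in KO, and the groups overlapped (difference 1.89 percentage points, exact two-sided permutation p = 0.2). Lamb2 held 65.8%, 63.7% and 66.0% of the beta chain FPKM (Lamb1, Lamb2 and Lamb3) in WT and 66.2%, 66.9% and 69.4% in KO. All KO shares were above all WT shares, by a mean difference of 2.31 points (exact permutation p = 0.1, the smallest that 3 against 3 allows). Nid1 held 86.8%, 84.6% and 86.6% of the nidogen FPKM in WT and 83.6%, 79.8% and 81.0% in KO. These groups were separate as well, with a mean share of 86.0% ± 1.21 in WT and 81.5% ± 1.93 in KO (SD, n = 3 each) and an exact permutation p of 0.1. Adjusted over the 3 shares tested, the p-values were 0.2, 0.15 and 0.15, and an exact permutation test of 3 against 3 cannot reach 0.05. The differences in the shares of Lama5, Lamb2 and Nid1 were 2.06, 2.65 and -4.13 points without WT replicate 1 (exact permutation p = 0.3, 0.2 and 0.2). Without WT replicate 2 the Lama5 difference was 0.78 points, and without KO replicate 3 the Lamb2 difference was 1.35 points.

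**Figure D3:**
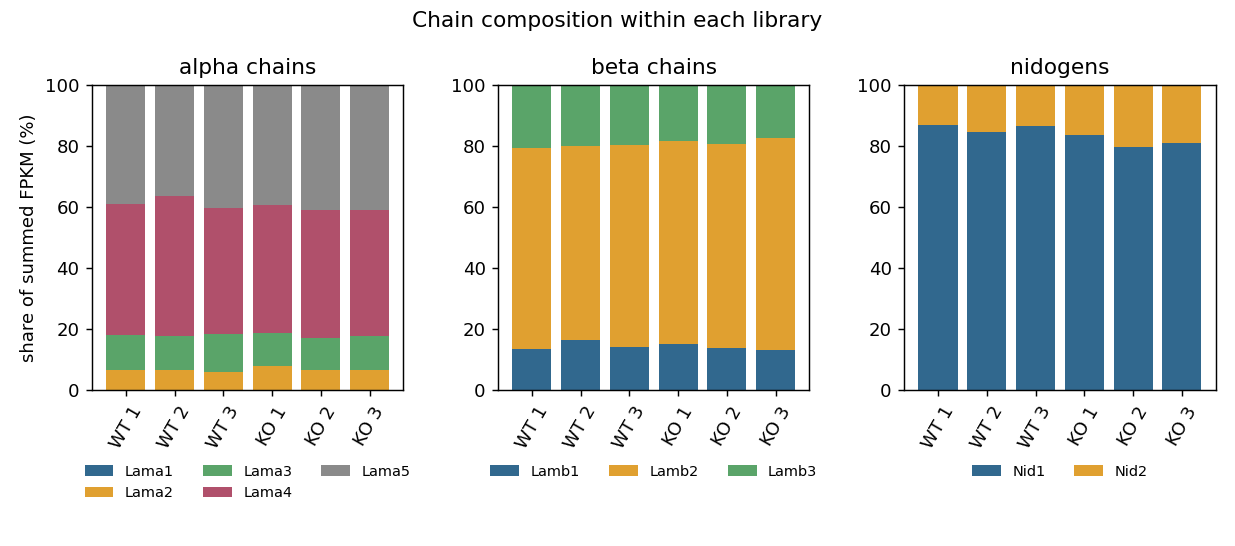
Share of each gene in the summed FPKM of its class (percent, vertical axis from 0 to 100) in each of the 6 libraries, for alpha and beta laminin chains and for the nidogens. Lamb2 holds 63.7% to 69.4% of the beta chains in every library, and the Nid1 segment is taller in WT (84.6% to 86.8%) than in KO (79.8% to 83.6%).

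Among other laminin chains, Lamc3 stood higher in KO. Lamc3 (chromosome 3, 15165220 to 15226697) encodes gamma 3, a minor gamma chain. It stood at 15.3, 16.2 and 12.6 CPM in WT and at 22.9, 35.7 and 27.0 CPM in KO, and the groups were separate. The log2 fold change was 0.96 (SE 0.19, interval 0.50 to 1.41, adjusted p = 0.197). Lamc3 rose by 0.99 (SE 0.18, adjusted p = 0.0159) without WT replicate 1 and was also called by DESeq2 with all 6 libraries (adjusted p = 0.00188).

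Lamb3, the beta chain that joins the Lama3 product in laminin-332, was not called in either edgeR fit. Lamb3 stood at 180, 147 and 152 CPM in WT and at 131, 132 and 117 CPM in KO, with a log2 fold change of -0.33 (adjusted p = 0.375), or -0.24 (adjusted p = 0.0941) without WT replicate 1. The WT and KO values of Lamb3 did not overlap, and WT replicate 1 was its highest library. Lama1, the alpha chain of early embryonic basement membranes, had 0 to 8 reads per library and was not tested.

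Type IV collagens, the other network of the basement membrane, were lower with the laminins. All 6 genes were fitted below 0, where 50.3% of all tested genes were, with a median log2 fold change of -0.36. In edgeR with all libraries 0 of 6 passed. At an unadjusted p under 0.05, 4 of 6 were lower, against 6.29% of all tested genes. DESeq2 called 2 of 6 with all libraries, Col4a1 and Col4a2 (adjusted p = 0.0227 and 0.0173), where it called 1.26% of genes as lower. Without WT replicate 1 the edgeR median was -0.40 and 5 of 6 fell, against 2.34% of all tested genes: Col4a1, Col4a2, Col4a3, Col4a5 and Col4a6. Col4a1, a chain of the ubiquitous collagen IV, stood at 1971, 1585 and 1443 CPM in WT and at 1164, 1137 and 1079 CPM in KO. Its partner Col4a2 stood at 1487, 1180 and 1095 CPM in WT and at 879, 799 and 831 CPM in KO. The pair had nearly equal log2 fold changes, -0.56 and -0.58 with all libraries and -0.43 and -0.44 without WT replicate 1 (edgeR adjusted p = 0.00405 and 0.00358). Col4a3 and Col4a5, chains of the alveolar and glomerular collagen IV, and Col4a6 had log2 fold changes of -0.38, -0.35 and -0.46 without WT replicate 1. With all libraries Col4a3 and Col4a5 were at -0.29 and -0.22 (edgeR adjusted p = 0.445 and 0.559), and their groups overlapped. WT replicate 1 stood at 284 CPM for Col4a3 (KO 246 to 289 CPM) and at 173 CPM for Col4a5, below every KO library (174 to 190 CPM). Col4a4 did not pass in either fit, at -0.31 and -0.26.

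Col4a1 and Col4a2 lie head to head, with RefSeq starts 77 bases apart on GRCr8. The 76 bases between the starts are shown because both genes are read outward from them. They are printed on the Col4a1 strand, with the GC box match in capitals.
Col4a1 and Col4a2, chr16:84885521-84885596, plus strand: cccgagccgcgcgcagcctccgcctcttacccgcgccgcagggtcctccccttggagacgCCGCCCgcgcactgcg

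Of 22 other basement membrane proteins, 20 were below 0 with all libraries, against 50.3% of all tested genes. Their median was -0.32, and 0 passed in edgeR. At an unadjusted p under 0.05, 10 of 22 were lower, against 6.29% of all tested genes. DESeq2 called 3 with all libraries, Hmcn2, Smoc2 and Col15a1 (adjusted p = 1.2e-05, 0.000123 and 0.00212), where it called 1.26% of genes as lower. Without WT replicate 1 the median was -0.23 and 17 were below 0, against 49.3% of all tested genes. In that fit 5 fell, against 2.34% of all tested genes: Hmcn2, Col15a1, Smoc2, Sparc and Efemp1. Sparc stood at 6020, 4259 and 3983 CPM in WT and at 3467, 3224 and 3369 CPM in KO. Its log2 fold change was -0.50, and -0.30 without WT replicate 1 (edgeR adjusted p = 0.0139). Hmcn2, a hemicentin, lies at 14588353 to 14738320 of chromosome 3, which also holds Lamc3 at 15165220 to 15226697. Hmcn2 stood at 71.1, 28.6 and 25.6 CPM in WT and at 7.35, 11.6 and 11.7 CPM in KO. Col15a1, a collagen at the outer face of capillary and muscle basement membranes, stood at 279.6, 133 and 126 CPM in WT and at 63.0, 75.8 and 84.7 CPM in KO. For both, WT replicate 1 was more than double the other WT libraries, and the log2 fold changes moved from -2.03 to -1.41 and from -1.27 to -0.79 without it (adjusted p = 0.0026 and 0.00333). Smoc2, a calcium-binding matricellular protein, fell by 0.76 on the log2 scale without WT replicate 1 (adjusted p = 0.00278). Its mean was 38.9 ± 6.33 CPM for WT and 21.1 ± 0.92 CPM for KO (SD, n = 3 each). Efemp1, fibulin 3, had log2 fold changes of -0.33 and -0.36, and Tinagl1 and Hmcn1, which did not pass in either fit, had -0.31 and -0.27 and -0.35 and -0.27, with all libraries and without WT replicate 1 in turn. The authors' deposited table of 192 genes, in which absolute log2 fold changes start at 1.00, holds none of the 10 laminin, nidogen and perlecan genes. It holds Hmcn2 and Col15a1, at the authors' log2 fold changes of -2.04 and -1.28.

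The median of receptors that bind laminin lay near that of all genes once WT replicate 1 was left out, but some receptors were lower. Of 15 receptor genes, 0 passed with all libraries in edgeR or DESeq2, and 1 was lower at an unadjusted edgeR p under 0.05, a share close to the 6.29% of all tested genes. Their median log2 fold change was -0.21, or -0.05 when WT replicate 1 was left out. Without that library 5 of 15 were lower at an unadjusted edgeR p under 0.05, against 9.28% of all tested genes. These were Itga2, Itgav, Dag1, Cd151 and Sdc2, and 1 of them passed after adjustment. Itga2, the integrin alpha 2 chain of a collagen and laminin receptor, was the 1 that fell in the fit without WT replicate 1, with a log2 fold change of -0.57 (adjusted p = 0.0275), where 2.34% of all tested genes fell. It stood at 17.3, 20.8 and 21.8 CPM in WT and at 16.2, 13.3 and 13.4 CPM in KO. Dag1, dystroglycan, and Cd151, a tetraspanin partner of laminin-binding integrins, had log2 fold changes of -0.39 and -0.35, and -0.16 and -0.15 without WT replicate 1. Itgav and Sdc1 were at -0.21 and -0.34, and at -0.30 and -0.03 without that library. Itga7, the muscle laminin integrin, was high in WT replicate 1 (38.5 CPM, and 9.83 to 12.2 CPM elsewhere), and its log2 fold change turned from -0.86 to 0.09 when that library was left out.

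**Figure D4:**
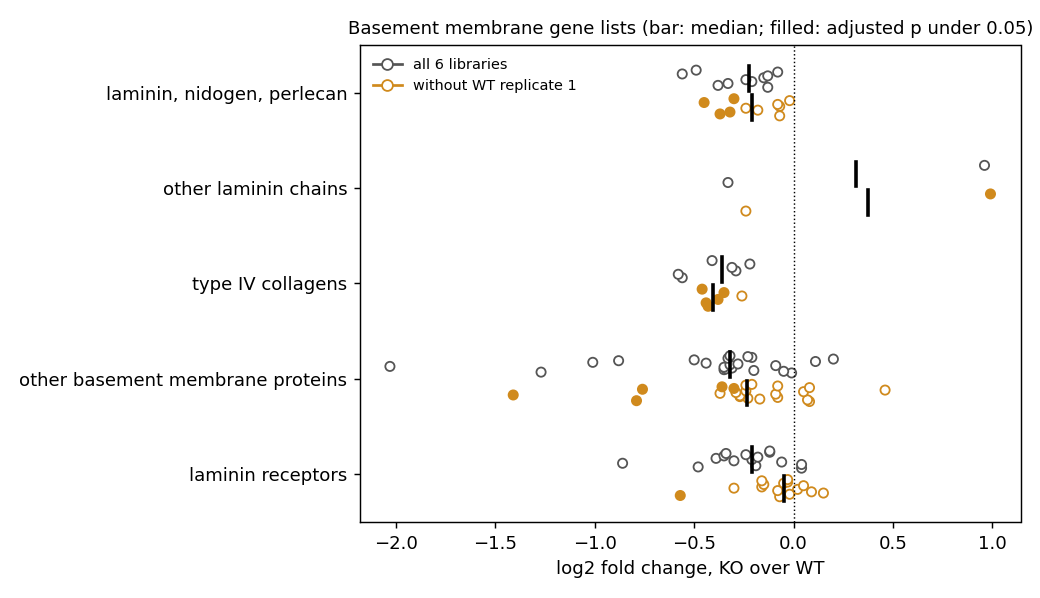
Log2 fold change (KO over WT) of each tested gene in 5 basement membrane gene lists, with all 6 libraries (grey) and without WT replicate 1 (orange); black bars are list medians, filled points have an adjusted p under 0.05, and vertical position within a row only spreads the points. Type IV collagens lie below 0 in both fits, Lamc3 is the point near 1 in the row of other laminin chains (2 genes shown), and the receptors centre at -0.05 without WT replicate 1.

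Some marker genes of several cell types moved with these differences. The summed level of the 10 laminin, nidogen and perlecan genes was 2728, 2296 and 2392 CPM in WT and 2099, 2052 and 1971 CPM in KO. Over 8 fibroblast markers it was 9211, 6147 and 5373 CPM in WT and 4338, 4137 and 4338 CPM in KO. Most of that sum came from the collagen genes Col1a1, Col1a2 and Col3a1. Their means were 1695, 1458 and 3218 CPM in WT and 907.5, 787 and 2106 CPM in KO. In the fibroblast list, 3 of 8 fell without WT replicate 1, Col1a1, Col1a2 and Col3a1, where 2.34% of all tested genes did. DESeq2 with all libraries called the same 3 as lower, where it called 1.26% of genes as lower. Inmt, a methyltransferase of lung fibroblasts, was the 1 of 8 that rose without WT replicate 1, where 1.65% of all tested genes did. Its log2 fold change in that fit was 0.53 (edgeR adjusted p = 0.0183). With all libraries Inmt was at 0.33 (edgeR adjusted p = 0.5), and WT replicate 1 (22.72 CPM) lay within the KO range of 21.25 to 23.69 CPM. Pdgfra, a fibroblast receptor, did not pass and had a log2 fold change of 0.13 without WT replicate 1. The fibroblast markers Tcf21, Dcn and Lum did not pass in that fit either, at -0.28, -0.11 and -0.30. Over 7 mesothelium markers the sum was 171 to 216 CPM in WT and at most 145 CPM in KO. Of the 6 tested mesothelium markers, 5 fell without WT replicate 1, where 2.34% of all tested genes did. The same 5 were called as lower by DESeq2 with all libraries, where it called 1.26% of genes as lower. Over 9 capillary endothelium markers the sum was 6318 CPM in WT replicate 1, 3647 to 3969 CPM in the other WT libraries and 3582 to 3728 CPM in KO. In the fit without WT replicate 1 their median log2 fold change was 0.06, and 2 of 9 fell, where 2.34% of all tested genes did. Gpihbp1, the capillary anchor of lipoprotein lipase, fell by 1.11 on the log2 scale (edgeR adjusted p = 0.00069). Cldn5, an endothelial claudin, fell by 0.46 (edgeR adjusted p = 0.00399). DESeq2 with all libraries called the same 2 as lower, where it called 1.26% of genes as lower. Of the 9, 1 rose without WT replicate 1, where 1.65% of all tested genes did. This was Aplnr, the apelin receptor, at 0.47 (edgeR adjusted p = 0.00728). The others did not pass in that fit: Kdr, Tek, Ednrb and Ca4 were at 0.23, 0.18, 0.10 and 0.06, and Pecam1 and Cdh5 at -0.11 and -0.15. With all libraries Aplnr was at 0.03 (edgeR adjusted p = 0.962), and WT replicate 1 (299 CPM) lay above every KO library (185 to 212 CPM). None of the fibroblast or endothelium markers was at 0 in any library, and of the mesothelium markers Calb2 was at 0 in the 3 WT libraries.

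Over 8 type 2 cell markers the sum was 34110, 22150 and 20900 CPM in WT and 19040, 19320 and 17590 CPM in KO, so the groups were separate. All 8 were fitted below 0 with all libraries, where 50.3% of all tested genes were, and DESeq2 called none of them. Without WT replicate 1, 7 of 8 were below 0 and 2 of 8 fell, where 2.34% of all tested genes did. These 2 were Sftpc and Lamp3 (edgeR adjusted p = 0.0474 and 0.0477). The others did not pass in that fit: Sftpa1, Napsa, Sftpb and Slc34a2 were at -0.26, -0.22, -0.18 and -0.16, Abca3 at -0.07 and Etv5 at 0.03. With all libraries the adjusted p was 0.432 for Sftpc and 0.5 for Lamp3 in edgeR. For Lamp3, WT replicate 1 (432 CPM) lay within the KO range of 356 to 464 CPM. Type 1 cell markers overlapped between groups (6455 to 6764 CPM in WT, 6292 to 6832 CPM in KO). Lymphocyte markers moved the other way: their sum was 53.8, 137 and 124 CPM in WT and 216, 218 and 246 CPM in KO. Every KO library lay above every WT library for 8 of 8 lymphocyte markers, against 11.4% of all tested genes, and 6 of 8 rose without WT replicate 1, where 1.65% of all tested genes did. DESeq2 with all libraries called 2 of 8 as higher, Cd79a and Cd8a. Over all genes it called 401, of which 254 were lower. Of 7 airway epithelium markers, 2 rose without WT replicate 1, where 1.65% of all tested genes did. These were the secretory genes Scgb1a1 and Scgb3a2 (log2 fold changes 0.38 and 0.48, edgeR adjusted p = 0.0167 and 0.0205). The others did not pass in that fit: Cyp2f4, Foxj1 and Krt5 were at 0.10, 0.05 and 0.55, and Tp63 at -0.03. Tppp3 was at -0.15, with every KO library below every WT library. Fewer cells of a type and less RNA per cell cannot be told apart in whole-lung RNA, and the part of these markers in the laminin, nidogen and perlecan differences was not tested.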

How the data were processed

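For 6 lung libraries the authors deposited a table of raw counts and a table of FPKM. The submitters' processing notes name HISAT2 2.2.1, featureCounts 2.0.6, StringTie 2.2.3, DESeq2 1.42.0, CASAVA and the build mRatBN7.2 without roles or settings, and no source used here states strand handling. In the deposited FPKM table each value was the count over gene length and over 1 factor per library. The authors' deposited comparison table has their log2 fold change and p-value per gene, beside a signal (normalized count) in each library; its gene names and fold changes were used. Low counts were more often even than odd (3171 genes against 1641, up to a count of 10, in WT replicate 1), as when mates are counted singly, so fragments are fewer than counts.

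Counts were fitted with edgeR 4.0.16 in R 4.3.3: TMM, filterByExpr (minimum count 10, minimum total 15), glmQLFit and glmQLFTest on genotype, with Benjamini-Hochberg adjustment over all tested genes at 0.05. Standard errors are the log2 fold change over the square root of F. CPM uses TMM library sizes of the 6-library fit. The fits were tested on simulated data with known changes. Those data held no outlying library such as WT replicate 1, so error rates with such a library were not tested. Alternatives were RLE size factors, DESeq2 1.42.0, limma-voom and limma 3.58.1 on log2 FPKM (pseudocount 1 or 0.1), other filters, a replicate block and leaving out each library. The members and lists were chosen with earlier results of these data known. Named were all 10 members, tested laminin and type IV collagen genes, up to 6 genes with the smallest p in each other pathway list, a few of the most abundant markers, and 5 genes most like the members; Pdgfra, Inmt, Gpihbp1, Cldn5, Aplnr, Lamp3 and Scgb3a2 were added after their values were seen, and 1 gene that this rule names is not reported here. All 148 list symbols were matched, 2 of them through RefSeq synonyms. Reads that overlapping genes share could not be separated.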

Additional observations from a re-analysis of the deposited data

How the results depend on the processing

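All 10 laminin, nidogen and perlecan genes stayed below 0 in each alternative run, and their median log2 fold change ranged from -0.30 to -0.18 when each library was left out in turn. How many passed did depend on the fit: 0 with all 6 libraries in edgeR, 1 with DESeq2 (Nid1, log2 fold change -0.57, adjusted p = 0.0157), and 0 to 4 when 1 library was left out, the 4 without WT replicate 1. Over all genes, 10 changed in the edgeR fit, 401 with DESeq2, and 1 to 758 when 1 library was left out; 758 was without WT replicate 1. Without WT replicate 2, or without KO replicate 1, 2 or 3, the counts over all genes were 2, 1, 2 and 2. The causes of these differences were not tested. With the replicate number as a block, 2 genes changed and 0 of the 10 passed. Same-numbered WT and KO libraries did not deviate together (correlations across genes of -0.08, 0.03 and -0.08 for numbers 1 to 3). With 3 libraries per group these correlations cannot exclude a shared litter, which the sources used here do not give. Leaving out 1 library in turn, the log2 fold change of Itga7 ranged from -1.18 to 0.09, the latter without WT replicate 1. The shares of Lama5, Lamb2 and Nid1 kept their direction in every alternative, with differences of 0.78 to 2.83, 1.35 to 2.97 and -5.61 to -3.73 points when 1 library was left out. In all, 2 WT libraries stand behind the values without WT replicate 1.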

Other observations

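Among 10754 protein-coding genes with a mean of at least 10 CPM, those whose 6 log2 CPM deviations were closest to the median deviation of the 10 laminin, nidogen and perlecan genes were Col23a1, Bcorl1, Cldn18, Sec61b and Col5a2. Likeness was the root mean square difference over the 6 libraries, which was 0.0338 to 0.0415 log2 units for these genes, 0.194 for the median gene and 0.0565 (Lama4) to 0.192 (Hspg2) for the 10 themselves. The median deviation of the 10 was 0.18, 0.06 and 0.06 in WT replicates 1 to 3 and -0.07, -0.16 and -0.24 in KO replicates 1 to 3. Cldn18, a claudin of alveolar epithelial tight junctions, had a log2 fold change of -0.22 and Col5a2, a fibrillar collagen chain, one of -0.26, and Col5a2 passed without WT replicate 1 (edgeR adjusted p = 0.0458).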
